A study of Macaca fascicularis with 16 samples.

Results

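NKTT320 is a monoclonal antibody against the T-cell receptor of iNKT cells (invariant natural killer T cells), and the study asked how blood cells respond when it is given to living animals. The libraries described here are the 4 made from peripheral blood mononuclear cells (PBMC) collected 2 hours after NKTT320, set against the 4 made from the same animals before it, 8 of the 16 libraries of the series. They were chosen by the animal and time that each library's title gives. The animals were cynomolgus macaques (Macaca fascicularis) of Mauritian origin, LG04, LG11, LG12 and LG15, each bled at both times, so every comparison is within an animal. All 4 received the antibody; its dose and route, and the age, sex and genotype of the animals, are not given in the labels used here. Animals that did not receive NKTT320 were not analysed here, so the antibody, the hours passed and the repeated bleeding cannot be told apart. The cells were unfractionated mononuclear cells from a density gradient, and the RNA is therefore the mixture of all cell types present.

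iNKT cells are rare lymphocytes that carry a nearly fixed T-cell receptor and recognise lipids presented by CD1d. Once engaged they are known to release cytokines quickly, and other cells of blood and tissue, among them monocytes, dendritic cells and NK cells, respond to those cytokines. Blood mononuclear cells are mostly T cells, B cells, NK cells and monocytes, and the classical monocytes among them carry the scavenger receptor CD163, Toll-like receptors and receptors for formyl peptides and chemokines.

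The 8 libraries held 1890190 (LG15 at 2 hours) to 7266493 (LG11 at 2 hours) counts each. Levels are given in scaled CPM, counts relative to library size (CPM) scaled by the TMM method so that libraries with much globin can be compared with the others, and sets of 4 values are in the order LG04, LG11, LG12, LG15. A count of 3 corresponded to 0.413 to 1.59 CPM before scaling. Markers of T cells, monocytes, NK cells and B cells were present in every library, and so were genes of cells a density gradient should largely remove. Globin genes took 47.7%, 4.70%, 0.0250% and 10.4% of counts at 2 hours, against 19.9%, 4.57%, 0.0327% and 5.97% before treatment. The summed level of 14 neutrophil markers was 1027, 715.1, 146.8 and 2649 scaled CPM at 2 hours and 4991, 472.6, 133.1 and 1203 before treatment, so it was lower at 2 hours in LG04 and higher in LG15.

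Each of the 8 libraries correlated best with another library of its own animal (Pearson r of log2(CPM + 1) across genes, which are not independent replicates). Of the 16 libraries 14 did so. The exceptions were the 1 day libraries of LG04 and LG15, which were nearest to each other (r = 0.968), while the 1 day library of LG04 reached at most 0.898 with its own animal. It enters the fit of 16 libraries, and without it the 2 tests used below, DESeq2 and edgeR, called 104 genes instead of 77 and 2 instead of 0 at an adjusted p of 0.05. The series-wide count table also holds that library under the name of LG04 at 2 hours; the library labelled LG04 at 2 hours in the tables per animal was used, and it was nearest to LG04 at 30 minutes (r = 0.974).

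Across all expressed genes, those with the smallest p at 2 hours included STEAP4, CREB5, KCNJ2, PTGS2 and CD163, which were higher, and the chaperone gene HSPH1, the nuclear receptor gene NR4A2, the lymphocyte egress receptor gene S1PR1 and the kinase gene PLK2, which were lower. Classical monocyte markers were higher and T-cell markers lower in every tested member. In the quasi-likelihood F test of edgeR, fitted to the 16 libraries with terms for time and animal, 0 of 11545 genes (0%) passed an adjusted p of 0.05. The smallest adjusted p was 0.0796, and at an unadjusted p under 0.05 there were 858 genes, 481 higher (4.17% of those tested) and 377 lower (3.27%). DESeq2 called 68 of the same genes, 48 higher (0.416%) and 20 lower (0.173%), and all 68 had the same direction in 4 of 4 animals. Of all genes tested, 8.06% were higher in 4 of 4 animals and 6.52% were lower in 4 of 4. Every count of list members in 4 of 4 animals given below is to be read against these shares. The 4 values at 2 hours lay wholly above the 4 earlier ones for 0.736% of genes and wholly below them for 1.03%. The median log2 fold change of all genes was 0.02. Because the 2 tools differ on every call, a gene is described below by its values, and a call by DESeq2 is named as one.

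The 16 genes with the smallest p among those higher in 4 of 4 animals were all called by DESeq2, and their edgeR adjusted p ranged from 0.0796 to 0.187. STEAP4, a metalloreductase of iron and copper handling, had 34.9, 29.1, 6.49 and 59.5 scaled CPM at 2 hours, against 5.36, 2.46, 1.17 and 3.7 before treatment. Its 4 values at 2 hours were all above the 4 earlier ones, and LG12 was lowest at both times. The log2 fold change was 3.26 ± 0.48 (SE), 9.59-fold (edgeR adjusted p = 0.0796, DESeq2 3e-07). CREB5, a transcription factor of the CREB and ATF family, had 59.9, 52.4, 7.79 and 83.4 scaled CPM at 2 hours and 9.72, 10.9, 2.14 and 7.03 before treatment. LG12 at 2 hours lay within the earlier range, but each animal was above its own earlier value, by 3.22-fold in LG12 to 11.3-fold in LG15. The fitted difference was 2.71 ± 0.39 on the log2 scale (edgeR adjusted p = 0.0796, DESeq2 2.4e-07). KCNJ2, an inward-rectifier potassium channel, had 23.8, 32.6, 9.96 and 16 scaled CPM at 2 hours, against 3.52, 5.52, 2.33 and 2.96 before treatment, with no overlap between the groups (log2 2.49 ± 0.41, edgeR adjusted p = 0.128).

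**Figure D1:**
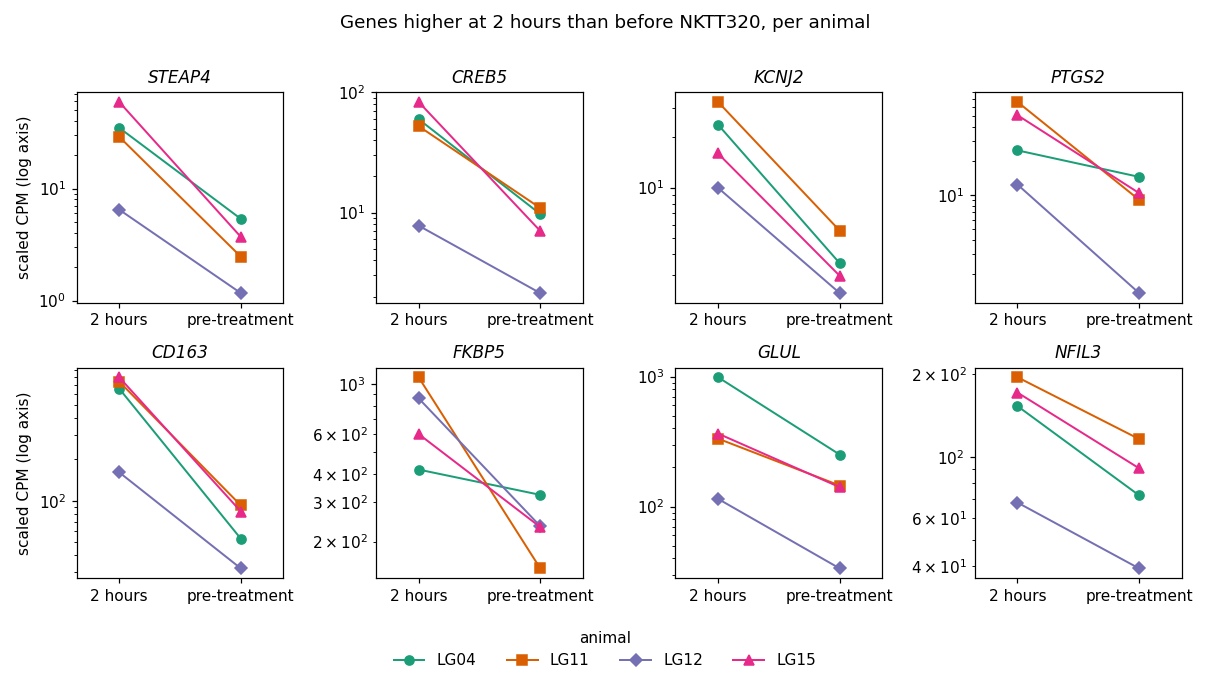
Scaled CPM (log axis) of 8 genes at 2 hours (left) and before treatment (right), with a line for each of the 4 animals. Every line is higher at its left end; STEAP4, KCNJ2, CD163 and FKBP5 have no overlap between the times, and FKBP5 in LG04 has the flattest line of its panel, 417 against 322 scaled CPM.

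CD163, the haemoglobin scavenger receptor of monocytes and macrophages, had 658, 740.2, 161 and 796 scaled CPM at 2 hours, against 52.8, 92.4, 32.1 and 83.4 before treatment. The groups did not overlap, and the per-animal change lay between 4.98-fold in LG12 and 12.4-fold in LG04 (log2 3.08 ± 0.61, edgeR adjusted p = 0.174, DESeq2 0.00012). PTGS2, which encodes the inducible cyclooxygenase COX-2 of prostaglandin synthesis, had 24.7, 66.1, 12.3 and 50.5 scaled CPM at 2 hours and 14.4, 9.04, 1.36 and 10.4 before treatment. It was higher in each animal, but LG12 at 2 hours was below LG04 before treatment (log2 2.17 ± 0.37, edgeR adjusted p = 0.143). GLUL, glutamine synthetase, averaged 450.5 ± 376 scaled CPM at 2 hours and 143 ± 88.9 before treatment (SD, n = 4), and LG04 was the highest animal at both times. NRG1, the growth factor neuregulin 1, had 19.9, 7.72, 3.9 and 28.5 scaled CPM at 2 hours, against 1.34, 2.11, 1.75 and 2.22 before treatment, and its groups did not overlap.

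Receptors and surface proteins of phagocytes made up much of the rest of the 16. FPR3, a formyl peptide receptor, had 12.7, 16.8, 2.6 and 5 scaled CPM at 2 hours and 0.168, 3.05, 0.777 and 1.11 before treatment; the earlier value of LG04 is a single read, below the 3-count floor. EMR1, an adhesion G-protein-coupled receptor of myeloid cells now named ADGRE1, averaged 21.1 ± 14.6 scaled CPM at 2 hours and 2.18 ± 0.663 before treatment. TLR4, the receptor for bacterial lipopolysaccharide, had 194, 206, 39.2 and 143 scaled CPM at 2 hours, against 43.9, 93.4, 14 and 45.1 before treatment (log2 1.64 ± 0.34, edgeR adjusted p = 0.181). The change was 2.20-fold in LG11, the smallest, and 4.39-fold in LG04, the largest, though the groups overlapped. CRISPLD2, a secreted protein that binds lipopolysaccharide, had 34, 62.2, 10.4 and 150.4 scaled CPM at 2 hours and 11.6, 4.93, 3.11 and 7.58 before treatment. MME, the cell-surface peptidase neprilysin that also marks mature neutrophils, had 5.12, 6.99, 2.38 and 25.5 scaled CPM at 2 hours and 0.838, 0.587, 1.75 and 1.11 before treatment. Both were highest in LG15 at 2 hours, the library with the highest neutrophil sum at that time. In LG04 both were higher at 2 hours than before treatment, while that sum was lower. The part of neutrophil RNA in these 2 genes was not tested.

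The remaining 4 showed smaller differences. MDM2, the ubiquitin ligase that restrains p53, had 198, 367, 196 and 186 scaled CPM at 2 hours, against 125, 173, 116 and 111 before treatment (log2 0.80 ± 0.15, edgeR adjusted p = 0.149). The groups were close but did not overlap, and LG11 stood highest at both times. NFIL3, a transcription factor of the clock and of NK-cell development, had 153, 195, 68.2 and 171 scaled CPM at 2 hours and 72.4, 116, 39.3 and 90.8 before treatment (log2 0.89 ± 0.17). IFI44, an interferon-stimulated gene, had 22.6, 49, 16 and 8.49 scaled CPM at 2 hours and 9.72, 25, 11.7 and 4.99 before treatment (log2 0.87 ± 0.18), with differences between animals larger than those between times. CRIPAK averaged 14.1 ± 3.23 scaled CPM at 2 hours and 7.93 ± 1.18 before treatment, without overlap. On the authors' FPKM values 15 of the 16 were higher in 4 of 4 animals, and MDM2 was higher in 3 of 4. The FPKM values come from the same libraries, and the 16 were chosen for this direction. Agreement was therefore likely from the start, and the count is no separate evidence.

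Classical monocyte markers as a group were higher. All 24 tested members of the list of 25 had a positive fold change, 16 of them in 4 of 4 animals (66.7%, against 8.06% of all genes), and DESeq2 called 5, CD163, VCAN, FPR1, THBS1 and TLR4. The median log2 fold change was 1.20, against 0.02 for all genes. Their summed level was 11712, 9503, 1972 and 11443 scaled CPM at 2 hours, against 4764, 3770, 782.7 and 3719 before treatment, so each animal was above its own earlier sum. THBS1 and VCAN made up a large part of the sums at 2 hours. In LG04 these genes had 4045 and 2248 scaled CPM, against 222 and 185 before treatment. LG12 had the lowest sum at both times. In unfractionated cells, more monocytes and more RNA of these genes per monocyte cannot be told apart.

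THBS1, thrombospondin 1, an adhesion protein of monocytes and platelets, had 4045, 2365, 431 and 2181 scaled CPM at 2 hours, against 222, 451, 81.8 and 1358 before treatment. Its log2 ratios were 4.18, 2.39, 2.39 and 0.68, the largest in LG04 and the smallest in LG15. The platelet markers described below had mean changes of 3.82, 0.66, 0.02 and -1.06, with the same extremes but the opposite sign in LG15. The part of platelet RNA in THBS1 was not tested. FPR1, the main formyl peptide receptor, had 16.3, 18.1, 1.52 and 24.5 scaled CPM at 2 hours and 2.85, 3.99, 0.972 and 0.74 before treatment, with LG12 near the detection floor at both times. VCAN, the proteoglycan versican, averaged 1762 ± 950 scaled CPM at 2 hours and 309.5 ± 200 before treatment (log2 2.53 ± 0.66, called by DESeq2). CD14, the lipopolysaccharide co-receptor, averaged 40.5 ± 30.7 scaled CPM at 2 hours and 12.2 ± 9.65 before treatment, and was higher in 3 of 4 animals but not in LG11 (log2 1.84 ± 0.61). LYZ, lysozyme, averaged 1098 ± 525 scaled CPM at 2 hours and 512.6 ± 305 before treatment and was higher in 4 of 4.

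The 8 members without the same direction in every animal were CD14, S100A8, S100A9, S100A12, CSF1R, CLEC12A, SERPINA1 and CD33. S100A8, S100A9 and S100A12, calcium-binding proteins shared by monocytes and neutrophils, had log2 ratios of -1.72, -1.68 and -2.57 in LG04 and of 1.64, 2.26 and 1.86 in LG15. Neutrophil markers had mean changes of -1.55 in LG04 and 1.71 in LG15, so these 3 genes had the same sign in both animals. The signs also matched in LG11, where the neutrophil mean was 0.88, but not in LG12. There the neutrophil mean was -0.09, and the 3 genes had 0.63, 0.54 and 2.05. CSF3R, the receptor for granulocyte colony-stimulating factor and a member of both lists, was higher in 4 of 4, LG04 included (log2 1.73 ± 0.56). The part of neutrophil RNA in the monocyte list was not tested.

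**Figure D2:**
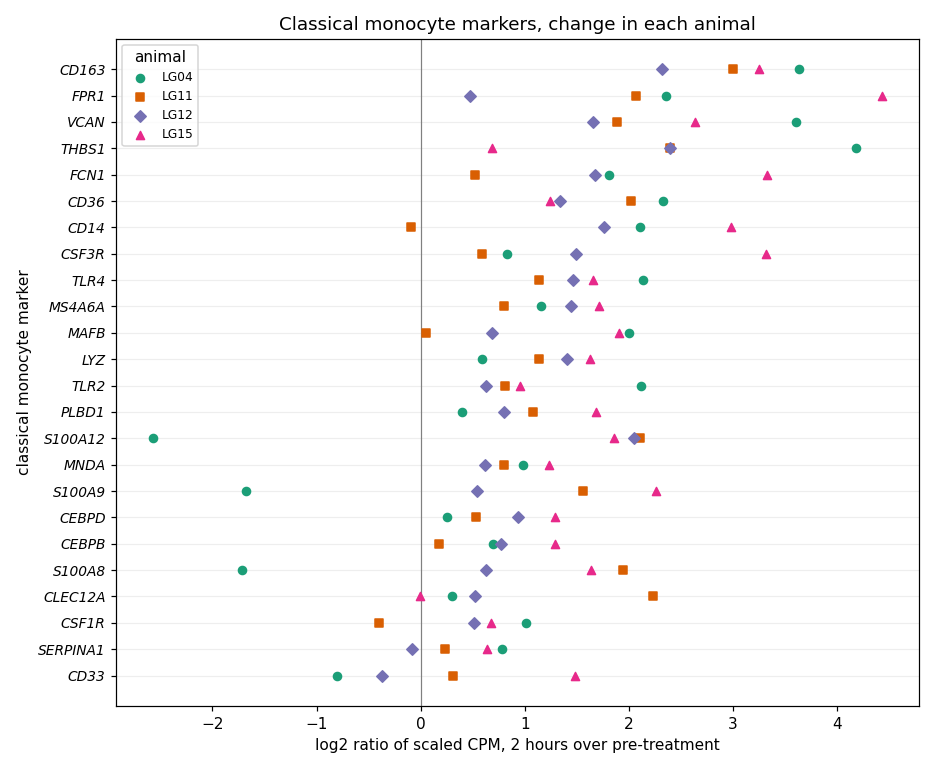
Log2 ratio of scaled CPM at 2 hours over pre-treatment for the 24 classical monocyte markers, ordered by fitted change, with 1 point per animal. CD163 lies between 2.32 and 3.63 in the 4 animals, while S100A8, S100A9 and S100A12 lie below 0 in LG04 and above 0 in the other 3.

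The leading genes did not all follow the monocyte list to the same extent. The median per-animal change of the 24 monocyte markers was 1.00, 0.94, 0.86 and 1.65 on the log2 scale. Of the 16 leading higher genes 8 exceeded that median in all 4 animals, and of the 48 genes called higher by DESeq2 15 did. The 16 were picked for a small p and a rise in every animal, and CD163 and TLR4 are themselves members of the list. Values above that median are therefore favoured by the choice, and the counts only describe these genes. Whether they rose beyond the monocyte content was not tested. STEAP4 exceeded it by 1.62, 2.41, 1.26 and 2.22, CREB5 by 1.58, 1.28, 0.82 and 1.85, and CD163 by 2.63, 2.05, 1.45 and 1.60. MDM2 differed from it by -0.33, 0.13, -0.11 and -0.91, below it in every animal except LG11. KCNJ2 exceeded the median in every animal, by 1.63, 1.53, 1.05 and 0.63.

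Not every myeloid group was higher in the same way. Non-classical monocyte markers were split, with 5 of 10 tested members higher, 1 of them in 4 of 4 animals (10%, against 8.06% of all genes). Their median of 0.10 was 0.03 without LG04, 0.30 without LG11 and 0.16 without LG15. FCGR3A, the Fc receptor CD16 that marks these cells and NK cells, had 205, 346, 102 and 113 scaled CPM at 2 hours and 103, 304, 93.5 and 129 before treatment. That is higher in 3 of 4 animals and by little in 2 of those. Dendritic cell markers had a median of 0.40 with 7 of 10 higher and 2 in 4 of 4 animals; it was 0.64 without LG11 and 0.26 without LG15. FLT3, the growth factor receptor of dendritic cell precursors, had 14.5, 10.6, 6.28 and 19 scaled CPM at 2 hours and 2.85, 9.98, 3.5 and 6.84 before treatment.

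Innate pattern receptors and their adaptors were higher almost throughout: 22 of 23 members, 13 of them in 4 of 4 animals, with a median of 0.69 and 1 DESeq2 call, TLR4. The 13 were TLR1, TLR2, TLR4, TLR5, TLR6, TLR8, MYD88, IRAK3, NOD2, NLRP3, CASP1, AIM2 and CLEC7A. TLR2 and TLR4 are also members of the classical monocyte list. Other lists share members too, CD163 and FPR1 among them, so the counts of different lists are not independent results. AIM2, a cytosolic DNA sensor, had 114, 164, 124 and 131 scaled CPM at 2 hours, against 77.4, 103, 88.6 and 100.3 before treatment, a small difference with no overlap (log2 0.52 ± 0.13). TLR5, the flagellin receptor, averaged 15.2 ± 9.31 scaled CPM at 2 hours and 4.51 ± 0.948 before treatment, with LG12 nearly the same at both times. IRAK3, which dampens Toll-like receptor signalling, had 191, 426, 102 and 179 scaled CPM at 2 hours and 137, 192, 60.1 and 105 before treatment.

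Chemokine receptors and integrins of monocytes had a median of 0.61, with 11 of 15 higher, 6 in 4 of 4 animals and 3 called higher by DESeq2, CCR1, CCR2 and FPR1. CCR2, the receptor by which classical monocytes leave bone marrow, had 61.1, 88.1, 21.2 and 77.4 scaled CPM at 2 hours, against 18.3, 38.6, 12.6 and 26.6 before treatment. Each animal was above its own earlier value, LG12 the least (log2 1.33 ± 0.30, edgeR adjusted p = 0.197, DESeq2 0.0094). CCR1 had 122, 65.8, 13.2 and 76.9 scaled CPM at 2 hours and 4.86, 30.3, 5.44 and 22.9 before treatment, with the largest change in LG04 (log2 2.25 ± 0.61). The median of this list was 0.24 without LG15.

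Scavenger and iron-handling genes had a median of 0.64, with 17 of 18 higher, 10 in 4 of 4 animals and 3 DESeq2 calls, STEAP4, CD163 and MSR1; without LG11 the median was 1.05. MSR1, the macrophage scavenger receptor, averaged 23.9 ± 12.6 scaled CPM at 2 hours and 7 ± 5.95 before treatment (log2 1.98 ± 0.52). Both ferritin chains, FTL and FTH1, were higher in 4 of 4 animals, with log2 fold changes of 0.90 and 0.48. HMOX1, which breaks down haem, was higher in 2 of 4 (0.66).

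Fc receptors and their adaptors were higher in 15 of 15 tested members, 6 of them in 4 of 4 animals, with a median of 0.64. FCAR, the IgA receptor, was called by DESeq2 and had 36.1, 70.9, 8.66 and 89.9 scaled CPM at 2 hours and 24.6, 5.28, 2.92 and 11.1 before treatment. The inhibitory receptor FCGR2B had 66.6, 47.4, 25.1 and 72.9 scaled CPM at 2 hours, against 18.9, 21.6, 17.5 and 19.1 before treatment. Its groups did not overlap, though the edgeR adjusted p was 0.409 (log2 1.40 ± 0.43). Complement genes had a median of 0.46, with 9 of 10 higher and 2 in 4 of 4 animals, both receptors: C5AR1 (log2 1.23 ± 0.42) and C3AR1 (1.01 ± 0.35).

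Inflammatory cytokines and genes of NF-kB feedback went in both directions. The list of 24 had 16 tested members, 12 higher and 4 lower, with a median of 0.31 (0.51 without LG11), and DESeq2 called 1 in each direction. PTGS2 was higher as given above. TNFAIP3, the ubiquitin-editing protein A20 that ends NF-kB signalling, had 233, 242, 298 and 225 scaled CPM at 2 hours, against 579, 474, 395 and 513 before treatment, with no overlap (log2 -0.97 ± 0.20, edgeR adjusted p = 0.179, DESeq2 0.0052). NFKBIA, the inhibitor that holds NF-kB in the cytoplasm, had 243, 175, 236 and 264 scaled CPM at 2 hours and 352, 315, 268 and 299 before treatment, also without overlap (log2 -0.44 ± 0.15). EREG, the growth factor epiregulin, was higher in 4 of 4 animals (10.2 ± 4.88 scaled CPM at 2 hours and 6.09 ± 2.78 before treatment).

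Of 29 type I interferon-stimulated genes 24 were higher, 8 in 4 of 4 animals (27.6%, against 8.06% of all genes). Their median log2 fold change was 0.26, with 1 DESeq2 call, IFI44. The 8 were MX1, MX2, IFI44, IFI44L, IFIT1, XAF1, USP18 and SAMD9L. MX1, an antiviral GTPase, had 114, 179, 52.8 and 63.5 scaled CPM at 2 hours and 45.6, 137, 42 and 32.7 before treatment (log2 0.76 ± 0.21). The mean change of the list was 0.66 in LG04 and 0.24, 0.18 and 0.10 in LG11, LG12 and LG15. Interferon-gamma response genes had a median of 0.30 (0.07 without LG04), 9 of 14 higher and 0 in 4 of 4 animals. IRF1, the first transcription factor of that response, was lower in 4 of 4, with 286 ± 62.5 scaled CPM at 2 hours and 337 ± 68.5 before treatment (log2 -0.24 ± 0.11). CXCL10, a chemokine induced by interferons, had 7.53, 15.4, 1.08 and 3.5 scaled CPM at 2 hours and 2.51, 13.4, 1.36 and 2.22 before treatment, a difference within the spread between animals.

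Genes known to be induced by glucocorticoids went in both directions, with 11 of 19 higher, 4 of them in 4 of 4 animals, 3 lower in 4 of 4 and a median of 0.13, which was -0.12 without LG11, -0.09 without LG12 and 0.26 without LG04 or without LG15. FKBP5, a co-chaperone that limits glucocorticoid receptor activity, had 417, 1070.2, 863 and 599.5 scaled CPM at 2 hours, against 322, 152, 234 and 232 before treatment. The groups did not overlap, and the change was small in LG04 and largest in LG11 (log2 1.58 ± 0.38, edgeR adjusted p = 0.243, DESeq2 0.0153). FKBP5 and CD163 were the list's 2 DESeq2 calls. TSC22D3, another widely used marker of glucocorticoid action, had a log2 fold change of -0.14 and was higher in 2 of 4 animals.

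PIM1, a kinase induced by cytokine receptors, was called higher by DESeq2 and had 367, 118, 141 and 231 scaled CPM at 2 hours and 182, 87.9, 98.3 and 105 before treatment. SOCS3, a feedback inhibitor of the same receptors, had 95.5, 116, 168 and 174 scaled CPM at 2 hours, against 81.6, 58.7, 56 and 67.3 before treatment, with no overlap (log2 1.06 ± 0.34, edgeR adjusted p = 0.463). STAT4, which carries signals of interleukin 12, had 36.7, 56.4, 63.9 and 41 scaled CPM at 2 hours and 75.6, 67.2, 76.4 and 72.7 before treatment, all 4 later values below the earlier ones (log2 -0.58 ± 0.20). The list of cytokine signalling feedback and STAT genes to which they belong had a median of 0.08, with 14 of 20 higher; it was -0.03 without LG15 and 0.20 without LG04.

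The 12 leading lower genes were all called by DESeq2, with edgeR adjusted p from 0.0805 to 0.197, and 8 of them had no overlap between the groups. HSPH1, a large cytosolic chaperone of the HSP110 family, had 47, 64, 37.2 and 40.5 scaled CPM at 2 hours, against 113, 117, 89.2 and 89 before treatment. All 4 later values were below the 4 earlier ones, by a fitted 2.2-fold (log2 -1.14 ± 0.18, edgeR adjusted p = 0.0805, DESeq2 2.1e-05). FKBP4, a co-chaperone of HSP90, had 12.3, 13.9, 8.88 and 18 scaled CPM at 2 hours and 19.3, 30.7, 25.7 and 28.9 before treatment, again without overlap. Heat-shock genes as a list were lower in 16 of 16 tested members, 6 of them in 4 of 4 animals (37.5%, against 6.52% of all genes), with a median of -0.29. That median was -0.49 without LG04 and -0.19 without LG15. The 6 were HSPH1, HSPA8, CHORDC1, AHSA1, STIP1 and CACYBP, and DESeq2 called only HSPH1 among the members. LG04 differed, with a mean change of 0.02 against -0.41, -0.43 and -0.54 in LG11, LG12 and LG15. HSP90AA1 had 232, 271, 210.0 and 209.8 scaled CPM at 2 hours and 230.3, 404, 299.7 and 352 before treatment, nearly equal in LG04 and lower in the other 3.

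**Figure D3:**
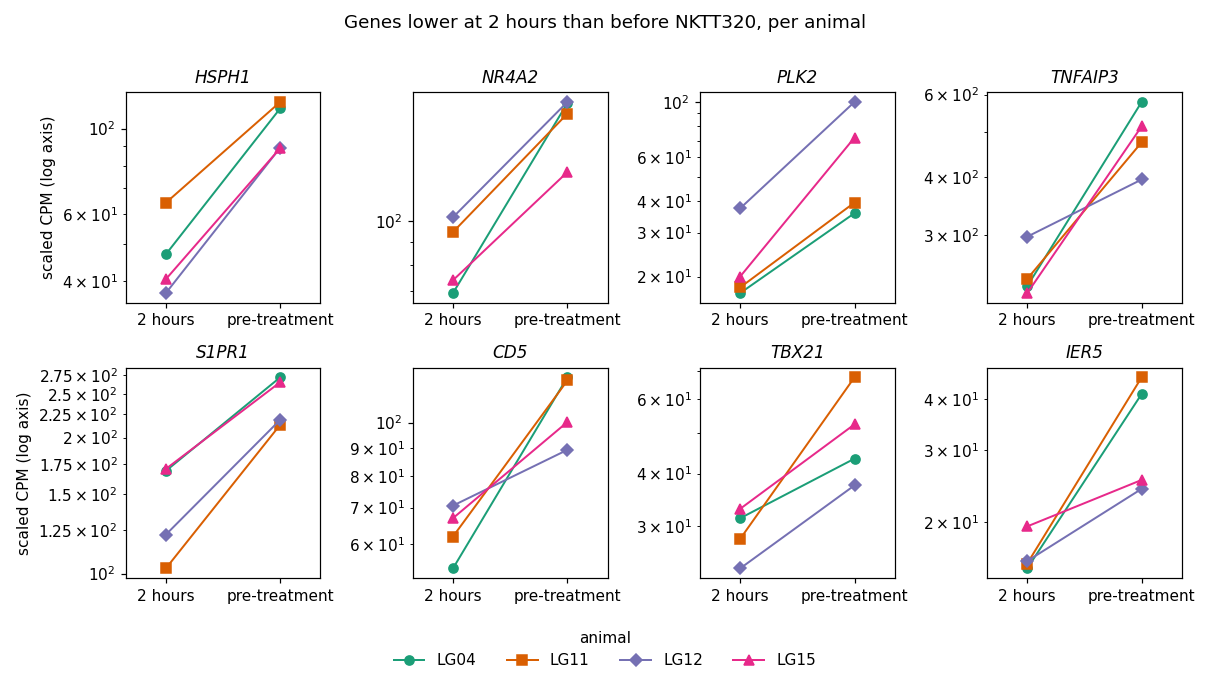
Scaled CPM (log axis) of 8 genes at 2 hours (left) and before treatment (right), with a line for each of the 4 animals. Every line is lower at its left end, and PLK2 is the one gene of the 8 whose groups overlap, since LG12 at 2 hours (37.5) lies above LG04 before treatment (35.9).

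Immediate-early genes and targets of cyclic AMP were mostly lower. NR4A2, an orphan nuclear receptor that immune and hormonal signals rapidly induce, had 69.3, 94.4, 102 and 73.9 scaled CPM at 2 hours, against 182, 172, 183 and 128 before treatment, with no overlap (log2 -0.98 ± 0.17, edgeR adjusted p = 0.149, DESeq2 0.00072). PLK2, a stress-responsive kinase, had 17.2, 18.1, 37.5 and 20 scaled CPM at 2 hours and 35.9, 39.5, 99.9 and 72 before treatment. LG12 was highest at both times, and each animal was below its own earlier value (log2 -1.35 ± 0.25). RGS1, which limits chemokine receptor signalling, had 86.4, 139, 176 and 74.4 scaled CPM at 2 hours and 195, 183, 251 and 206 before treatment, without overlap (log2 -0.87 ± 0.23, edgeR adjusted p = 0.294).

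Of 11 tested genes of the cyclic AMP and CREB list 9 were lower, 7 in 4 of 4 animals (63.6%), with a median of -0.55. The 7 were CREM, SIK1, PDE4B, RGS1, PLK2, NR4A2 and DUSP4. CREB5 and RGS2 went the other way in 4 of 4 animals, with log2 fold changes of 2.71 and 0.54. Both are also expressed by monocytes. Immediate-early genes had a median of -0.21, with 16 of 22 lower, 5 in 4 of 4 animals and 2 DESeq2 calls, NR4A2 and IER5. IER5, a growth-response gene, had 15.4, 15.8, 16 and 19.5 scaled CPM at 2 hours and 41.2, 45.3, 24.1 and 25.3 before treatment, without overlap. FOS, a subunit of the AP-1 factor, had 366, 852, 439 and 565 scaled CPM at 2 hours and 1033, 1007, 665 and 964 before treatment, lower in 4 of 4 animals and least in LG11 (log2 -0.80 ± 0.24). The mean change of the list was -0.44, -0.85 and -0.12 in LG04, LG11 and LG12 but 0.34 in LG15, and its median was -0.02 without LG11 and -0.33 without LG15. NR4A1, a marker of recent T-cell receptor signalling, had 42.8, 58, 41.8 and 34 scaled CPM at 2 hours, against 59.7, 86.1, 31.3 and 23.5 before treatment. EGR2, another such marker, had 14.5, 11.7, 11.9 and 11.5 scaled CPM at 2 hours, against 5.03, 18.7, 8.16 and 8.69 before treatment. Neither had 1 direction in all animals.

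MAP kinase phosphatases and Sprouty genes had a median of -0.25 (-0.40 without LG12 and -0.16 without LG15), with 8 of 12 list members lower and 4 in 4 of 4 animals. DUSP10 was called lower by DESeq2 (32.3 ± 8.71 scaled CPM at 2 hours and 48.4 ± 8.99 before treatment). DUSP4 had 23.8, 15.2, 23.4 and 37.5 scaled CPM at 2 hours and 62, 24.2, 31.1 and 85.8 before treatment, lower in 4 of 4 (log2 -0.89 ± 0.24). MYLIP, a ubiquitin ligase for the LDL receptor, averaged 106 ± 26.1 scaled CPM at 2 hours and 161 ± 24.3 before treatment. BCOR, a transcriptional corepressor, averaged 49.2 ± 6.04 scaled CPM at 2 hours and 75.9 ± 10 before treatment. PCDH1, a protocadherin, averaged 47.5 ± 13.4 scaled CPM at 2 hours and 79.2 ± 12.7 before treatment. SLC15A2, a peptide transporter, had 6.02, 10.4, 32 and 6.99 scaled CPM at 2 hours and 22.6, 16.2, 42.4 and 18.5 before treatment, with LG12 well above the other animals at both times.

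T-cell markers were lower in 20 of 20 members, 8 of them in 4 of 4 animals (40%), with a median of -0.34 and 2 DESeq2 calls, CD5 and CD6. CD5, a receptor that tempers T-cell receptor signals, had 54.2, 62, 70.6 and 66.9 scaled CPM at 2 hours, against 121, 119, 89.2 and 100.3 before treatment, without overlap (log2 -0.76 ± 0.17, edgeR adjusted p = 0.197, DESeq2 0.0114). CD6, a related receptor, had 64.8, 88.1, 91.8 and 101 scaled CPM at 2 hours and 161, 189, 127 and 109 before treatment. The later values lay below the earlier ones, and LG15 showed the smallest change. CD3G and CD8A, chains of the receptor complex and of the cytotoxic coreceptor, gave log2 fold changes of -0.62 ± 0.17 and -0.63 ± 0.18, while CD4 gave -0.09 ± 0.13. The summed level of the 20 markers was 1486, 1569, 1994 and 1755 scaled CPM at 2 hours and 2146, 2014, 2140 and 2363 before treatment. LG12 had the smallest relative difference. Since scaled CPM is relative to the other RNA counted, T-cell markers and monocyte markers are not independent of each other.

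S1PR1, the sphingosine phosphate receptor by which lymphocytes leave lymphoid tissue, had 169, 103, 122 and 170.4 scaled CPM at 2 hours, against 272, 214, 219 and 265 before treatment, without overlap (log2 -0.81 ± 0.15, edgeR adjusted p = 0.149, DESeq2 0.00044). Its change differed from the median change of the T-cell markers by -0.21, -0.64, -0.81 and -0.15 on the log2 scale, lower in each animal. S1PR1 was picked for a small p and a lower value in every animal, so a change below that median was favoured by the choice. The list of lymphocyte egress and homing receptors had 15 of 18 members lower, 3 in 4 of 4 animals, and a median of -0.28. CD69, the early activation antigen that binds S1PR1 and holds lymphocytes in place, had 95.2, 177, 165 and 68.4 scaled CPM at 2 hours, against 159, 229, 197 and 319 before treatment (log2 -0.81 ± 0.38). It was lower in each animal, and most in LG15. TGFBR3, a co-receptor for TGF-beta, had 216, 275, 124 and 214 scaled CPM at 2 hours and 399, 436, 167 and 503 before treatment (log2 -0.81 ± 0.16, edgeR adjusted p = 0.174). TCF7, a transcription factor of naive and memory T cells, was lower in 4 of 4 animals (log2 -0.48 ± 0.17), while its list of 12 tested genes had a median of -0.15 (-0.34 without LG11, -0.32 without LG12 and -0.07 without LG04 or without LG15), 9 lower and 1 in 4 of 4 animals.

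Genes of the cells the antibody targets, and of their relatives, did not all change in the same direction. Of 19 iNKT-associated genes 13 were lower, 5 in 4 of 4 animals (26.3%, against 6.52% of all genes). None was higher in 4 of 4, against 8.06% of all genes. The median of the list was -0.08 (-0.23 without LG11, -0.14 without LG12 and -0.03 without LG15). ZBTB16, which encodes PLZF, the transcription factor of iNKT cells, had 23.5, 14, 9.31 and 27 scaled CPM at 2 hours, against 31.3, 5.05, 1.94 and 5.55 before treatment. It was higher in LG11, LG12 and LG15 and lower in LG04, whose earlier value stood far above the other 3 (log2 1.16 ± 0.54, edgeR adjusted p = 0.675). Glucocorticoids are also known to induce it. CD1D, the lipid-presenting molecule, had 19.6, 5.67, 4.55 and 17.5 scaled CPM at 2 hours and 12.7, 9.98, 1.75 and 3.7 before treatment, higher in 3 of 4. TBX21, which encodes T-bet, the factor of type 1 lymphocytes, had 31.3, 28, 23.8 and 33 scaled CPM at 2 hours, against 43.4, 67.7, 37.5 and 52.4 before treatment. Its groups did not overlap, and DESeq2 called it lower (log2 -0.79 ± 0.18, edgeR adjusted p = 0.198, DESeq2 0.0264), a call that was lost whichever animal was left out. GATA3, the type 2 counterpart, had 10.8, 15.8, 17.8 and 13 scaled CPM at 2 hours and 19.6, 21.8, 18.5 and 20 before treatment, also without overlap (log2 -0.46 ± 0.23). In unfractionated cells none of these values can be assigned to iNKT cells.

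IFNG, interferon gamma, had 1.51, 4.22, 1.52 and 0.999 scaled CPM at 2 hours, against 2.68, 8.1, 5.25 and 9.8 before treatment. It was lower in 4 of 4 animals, though 5, 35, 7 and 2 counts at 2 hours, against 16, 69, 27 and 53 before treatment, lie behind these values (log2 -1.51 ± 0.41, edgeR adjusted p = 0.324). Of 19 lymphocyte cytokines and chemokines 8 were expressed enough to be tested, 6 lower and 2 higher, with a median of -0.18. That median was -0.28, -0.38 and -0.05 without LG04, LG11 and LG12, and near 0 without LG15. CCL4, a chemokine of cytotoxic cells, had 9.04, 5.91, 4.76 and 6 scaled CPM at 2 hours and 12.1, 9.27, 5.64 and 9.99 before treatment, lower in 4 of 4. Cytotoxic granule genes had a median of -0.30 with 10 of 13 lower, 4 in 4 of 4 animals (30.8%, against 6.52% of all genes). None of them was higher in 4 of 4. CTSW and CST7, a protease and a protease inhibitor of granules, were lower in 4 of 4 (log2 -0.46 ± 0.21 and -0.30 ± 0.17). NK-cell markers had a median of 0.06, with 7 of 12 higher; it was -0.17 without LG11, 0.19 without LG15 and near 0 without LG04 or LG12. NCAM1, the adhesion molecule CD56, had 28.9, 22.1, 28.4 and 43 scaled CPM at 2 hours, against 10.7, 12.3, 12.8 and 12.6 before treatment, higher without overlap (log2 1.33 ± 0.44, edgeR adjusted p = 0.47). Which cells of the mixture carried this RNA was not tested, so it cannot be read as a change of NK cells. IL2RB, the receptor chain shared by interleukins 2 and 15, had 198, 120.0, 91.4 and 171 scaled CPM at 2 hours and 271, 240.1, 127 and 193 before treatment, lower in 4 of 4 (log2 -0.54 ± 0.22).

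**Figure D4:**
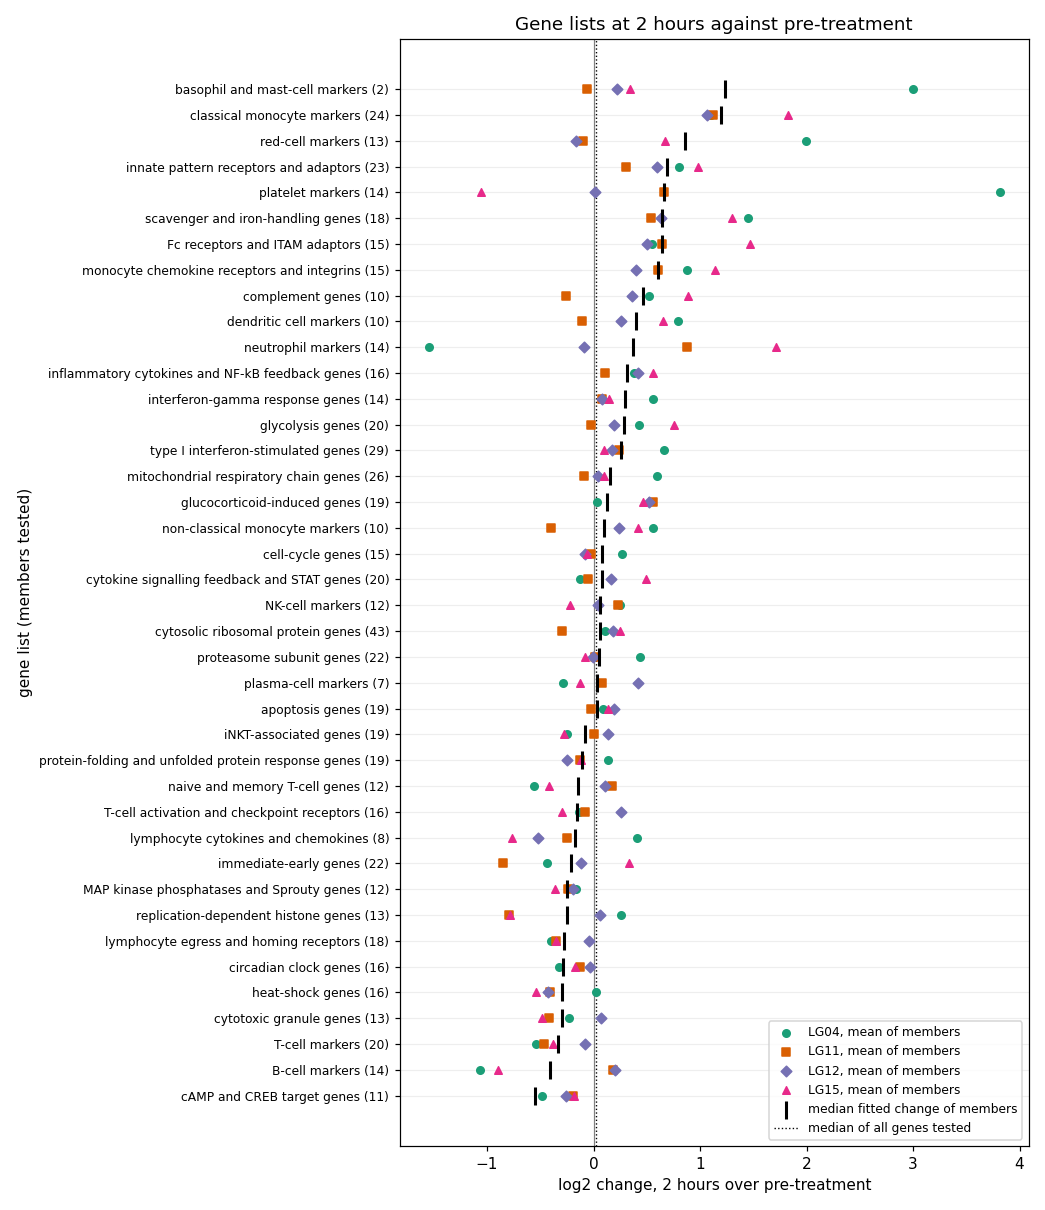
Mean log2 change of each gene list's tested members at 2 hours over pre-treatment, 1 point per animal, with a bar for the median fitted change of the members and a dotted line for the median of all genes tested (0.02). Classical monocyte markers lie above 1 in all 4 animals, T-cell markers lie below 0 in all 4, and platelet, neutrophil, red-cell and B-cell markers are spread on both sides of 0.

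Several cell-type lists differed between animals more than between times. Platelet markers had mean changes of 3.82, 0.66, 0.02 and -1.06 on the log2 scale, and their median of 0.66 was -0.24 without LG04 and 1.93 without LG15. MYL9, a myosin light chain abundant in platelets, had 177, 4.46, 3.25 and 139 scaled CPM at 2 hours and 12.1, 2.58, 1.94 and 171 before treatment. Neutrophil markers had mean changes of -1.55, 0.88, -0.09 and 1.71, and 2 of 14 were higher in 4 of 4 animals; their median of 0.37 was 0.98 without LG04 and -0.50 without LG15. MMP9, a gelatinase of neutrophil granules, had 50.6, 26.2, 1.08 and 256 scaled CPM at 2 hours, against 333, 12.4, 0.777 and 21.5 before treatment, so LG04 and LG15 went opposite ways. Red-cell markers had mean changes of 1.99, -0.10, -0.17 and 0.68, with a median of 0.86 (0.22 without LG04). Of 9 basophil and mast-cell markers only 2 were tested, FCER1A and GATA2, with a mean change of 3.0 in LG04 and -0.06, 0.22 and 0.35 in the others. B-cell markers had a median of -0.41 with 13 of 14 lower, but mean changes of -1.07 and -0.90 in LG04 and LG15 and of 0.18 and 0.20 in LG11 and LG12. The median was -0.15 without LG04, -0.61 without LG12 and -0.23 without LG15. PAX5, the B-cell identity factor, had 13.3, 9.65, 82.5 and 16.5 scaled CPM at 2 hours and 50.9, 9.86, 83.2 and 22 before treatment. The part of these cell types in the results for other genes was not tested.

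Genes of the circadian clock had a median of -0.29, with 12 of 16 lower and 6 in 4 of 4 animals, CRY1, CRY2, NR1D2, DBP, TEF and BHLHE40. NR1D2, a repressor of the clock, had 146, 205, 219 and 125 scaled CPM at 2 hours, against 228, 239.6, 251 and 236 before treatment, without overlap (log2 -0.50 ± 0.16, edgeR adjusted p = 0.463). NFIL3, the one clock gene called by DESeq2, was higher as given above. Hours of day were not given in the labels used here. Glycolysis genes had a median of 0.28, with 16 of 20 higher and 5 in 4 of 4 animals; it was 0.15 without LG04 and 0.44 without LG11. PFKFB3, which makes the activator of phosphofructokinase, had 122, 76.1, 59.7 and 234 scaled CPM at 2 hours and 93.3, 33.8, 28.8 and 31.6 before treatment. LDHA, lactate dehydrogenase, had 177, 224, 109 and 200.3 scaled CPM at 2 hours and 115, 159, 78.1 and 134 before treatment. Both were higher in 4 of 4 animals (log2 1.36 ± 0.37 and 0.55 ± 0.17).

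The 28 leading genes were also set beside their values at 30 minutes and 1 day, which share the pre-treatment libraries and so are not separate evidence. STEAP4 had log2 fold changes of 1.55 at 30 minutes, 3.26 at 2 hours and 2.10 at 1 day, and CD163 0.95, 3.08 and 1.86. KCNJ2 had 1.59, 2.49 and 0.88, and PTGS2 1.34, 2.17 and 0.43. IFI44 (0.43, 0.87 and -0.78) and NFIL3 (0.20, 0.89 and -0.33) were above their pre-treatment level at 2 hours and below it at 1 day. HSPH1 had -0.81 at 30 minutes, -1.14 at 2 hours and 0.38 at 1 day, and FKBP4 -0.24, -1.01 and 0.60. NR4A2 (-0.80, -0.98 and -2.24), TNFAIP3 (-0.31, -0.97 and -1.66) and PLK2 (-0.15, -1.35 and -1.81) were lowest at 1 day. Without the 1 day library of LG04, whose doubtful place is given above, all these 1 day values kept their sign, with STEAP4 at 2.48 and FKBP4 at 0.41. Differences between these times were not tested here.

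**Figure D5:**
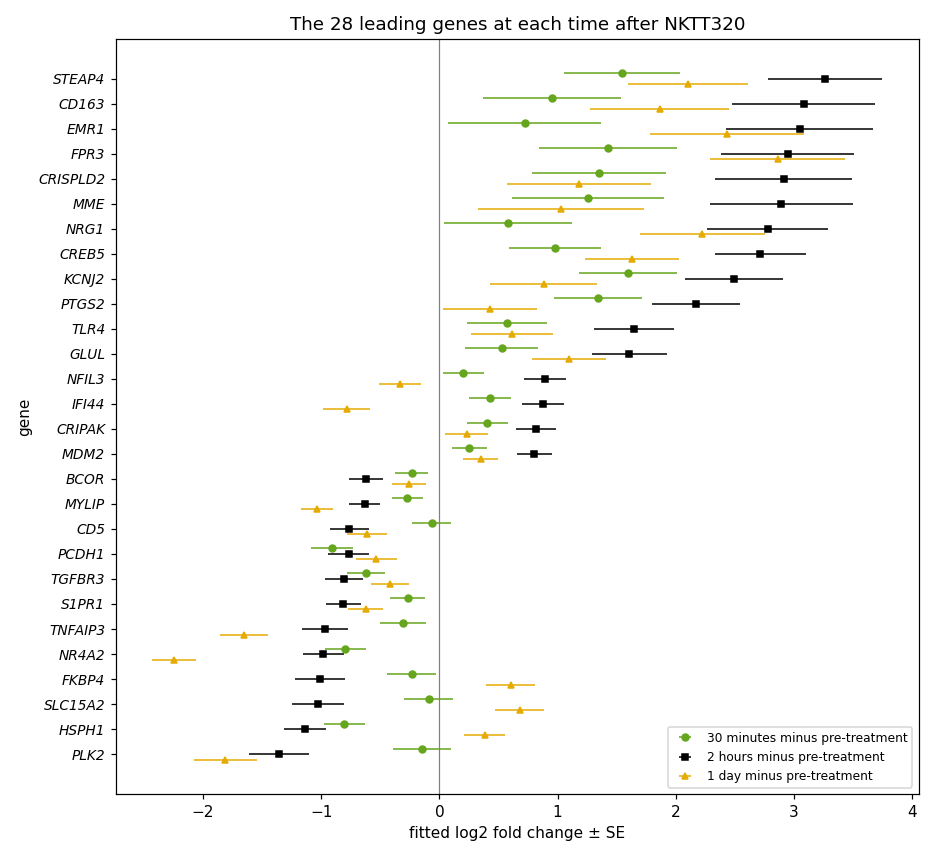
Fitted log2 fold change ± SE against pre-treatment at 30 minutes, 2 hours and 1 day for the 28 leading genes (16 higher and 12 lower at 2 hours). The genes were chosen by their values at 2 hours; HSPH1 and FKBP4 lie below 0 at 2 hours and above 0 at 1 day (0.38 and 0.60).

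Calls by DESeq2 depended on which animals entered. Of the 77 genes it called in all, 10 were also called in each of the 4 fits that left out 1 animal: CREB5, CRISPLD2, GLUL, KCNJ2, MDM2, PTGS2, STEAP4 and TLR4, which were higher, and HSPH1 and NR4A2, which were lower. Another 22 of the 77 were called in none of these fits, among them BCOR, CRIPAK, DUSP10, TBX21, CLEC4E and CYP3A5. The 68 within the genes tested by edgeR had log2 fold changes of 0.41 to 3.26 where higher (median 1.77) and of -1.35 to -0.45 where lower (median -0.78). Among those not yet named were AQP9, a water channel of leukocytes (log2 2.49), NLRP12, an inhibitory sensor of myeloid cells (2.17), CD163L1, a relative of CD163 (2.74), EPHB2 (2.61), HGF, hepatocyte growth factor (1.94), IL13RA1 (1.99), IL1RAP, a shared receptor chain of the interleukin 1 family (1.16), and ARG2, arginase 2 (1.52), chosen here after their values were seen. The 9 calls outside the genes tested by edgeR were CLEC4E, CYP3A5 and 7 genes with 3 to 7 counts in all 16 libraries together, whose fold changes cannot be read.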

How the data were processed

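Total RNA of snap-frozen, unfractionated PBMC was depleted of ribosomal RNA and made into stranded libraries, sequenced with single reads of 75 cycles, per the labels' protocols. Tools named in the submitters' processing notes are STAR, HTSeq, Trimmomatic, FastQC, edgeR and DESeq, with human builds hg19 and GRCh37; no source used here gives the counting settings or strand. The values the authors deposited are raw counts per human gene model, so genes that differ between the species may be undercounted, and near-identical copies (HBA1 and HBA2, histone genes), overlapping genes and antisense genes are uncertain. Several genes, among them TNF and HSPA1A, are listed at 0 in every library. The deposited FPKM values are scaled to gene length and library size by the authors, and were used only to check directions, on log2(FPKM + 0.1).

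Counts came from the tables made per animal. Their 24369 entries were summed to 23602 symbols. Of 8 columns of the series-wide count table for 2 hours, 7 equalled the library they name, and the 2 hour column of LG04 held the 1 day library of LG04, so that table was not used further. No library repeated another among the 120 pairs of the 16 libraries (smallest chi-square per gene 5.15).

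The comparison was fitted with edgeR 4.0.16 in R 4.3.3 (TMM, filterByExpr, quasi-likelihood F test) on 16 libraries, which held 1417467 to 8582852 counts, with terms for time and animal (9 residual degrees of freedom) and Benjamini-Hochberg adjustment over 11545 genes at a threshold of 0.05. The animal term rests on the same animals being bled at each time; deviations of an animal's 2 libraries from their group means correlated at 0.514, 0.435, 0.876 and 0.153. Standard errors (SE) of fold changes were derived from the F statistic. P-values rest on the variation left after the terms for time and animal, pooled over all times in the 16 libraries of these 4 animals. They do not measure the spread of the changes at 2 hours alone. DESeq2 1.42.0 used the same design. The fits were tested on simulated data. Per-animal changes are log2 ratios of scaled CPM with a prior count of 2. The count floor covers counting error only, since reads lacking molecular identifiers do not count molecules. Named genes were the 16 higher and 12 lower genes with the smallest p among those with a mean of at least 5 scaled CPM and the same direction in 4 of 4 animals, up to 4 members of smallest p from each of 40 gene lists, the 2 most variable members of lists that were split between the animals, and a panel of 9 genes; others are named where a count of list members or calls is spelled out. The members and lists were chosen with earlier results of these data known. Alternatives were RLE scaling, DESeq2, no filter, fits without the animal term, of 8 libraries, without globin genes, without single animals or without libraries in doubt. Further DESeq2 fits (without the animal term, or leaving out animals or libraries), the FPKM check and the 1 day values without 1 library were chosen after seeing the data. Promoter and protein sequences were not used here.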

Additional observations from a re-analysis of the deposited data

Results flagged for a closer look

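In 114 groups of 4 values, 1 animal stood apart from the other 3 in 14 cases. A rate of about 1 in 20 would hold by chance for independent, normally distributed values. These groups come from the same 4 animals and are not independent, so the 14 cases cannot be judged against that rate. Among single genes, the animal that stood apart was LG11 at 2 hours for MDM2 (366.8 scaled CPM) and IFNG (4.22), LG12 at 2 hours for PLK2 (37.5) and SLC15A2 (32.0), and LG04 at 2 hours for EGR2 (14.5). Before treatment it was LG04 for ZBTB16 (31.3 scaled CPM) and LG11 for CXCL10 (13.4).

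Among mean changes of gene lists on the log2 scale, LG15 stood above the other animals for classical monocyte markers (1.82) and for Fc receptors and ITAM adaptors (1.47). LG04 stood above them for basophil and mast-cell markers (3.0), interferon-gamma response genes (0.56), cell-cycle genes (0.26) and proteasome subunit genes (0.44). LG12 stood apart, nearest to 0, for lymphocyte egress and homing receptors (-0.040).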

How the results depend on the processing

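The count of 0 genes called by edgeR was also 0 with RLE scaling, with 8 libraries, without the replicate block, without globin genes, without the libraries under 2000000 counts (the shallow libraries) and without each of the 4 animals (lowest and highest count 0). It was 7 with no filter on low counts (6 higher, CREB5, STEAP4, KCNJ2, PTGS2, CD163 and NRG1, and 1 lower, HSPH1) and 2 without the 1 day library of LG04 (CREB5 and STEAP4). DESeq2 called 77 genes with all libraries and 82 with the 8 libraries, 42 of them shared. DESeq2 calls numbered 5 with no replicate block, 40 without the shallow libraries, 104 without the 1 day library of LG04, and 30, 26, 68 and 47 without LG04, LG11, LG12 and LG15, a range of 26 to 68. The 28 leading genes kept their direction in all 364 recomputed values. They were chosen for the same direction in 4 of 4 animals, so a reversal was unlikely from the start and this count is no check of them. Among other named genes, fold changes with 1 animal left out ranged from -0.34 (without LG15) to 0.57 for CD33, from -0.48 (without LG15) to 2.02 for MMP9, from -0.26 to 0.10 (without LG11; 0.08 without LG04) for NR4A1 and from -0.37 to 0.11 (without LG15; 0.02 without LG04) for TSC22D3. Without the shallow libraries the log2 fold change of MMP9 was -0.0351, the log2 fold change of CD33 -0.35 and the log2 fold change of TSC22D3 0.036, and with no replicate block MMP9 gave -0.15. Medians of gene lists moved by less than the spread between animals (SD of the 4 per-animal mean changes) in 515 of 520 values. Lists with a wide spread meet this limit easily, so the count does not show that a median is stable. Platelet markers (-0.24 without LG04) and neutrophil markers (-0.50 without LG15) changed sign within it. The values that moved further were NK-cell markers (-0.17) and inflammatory and NF-kB genes (0.51) without LG11, MAP kinase phosphatases (-0.40) without LG12, and monocyte chemokine receptors and integrins without LG15 (0.24) or without the shallow libraries (0.26). The cause of these differences was not tested. Limits: with 4 animals and no animals without the antibody, the comparison cannot separate NKTT320 from time and bleeding, and genes under about 5 scaled CPM rest on few counts in the shallowest library, LG15 at 2 hours.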

Other observations

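Lists of general cell functions lay close to the median of all genes at 2 hours. Cytosolic ribosomal protein genes had a median log2 fold change of 0.06, with 27 of 43 higher and 5 in 4 of 4 animals (11.6%, against 8.06% of all genes). That median was 0.14 without LG11, 0.02 without LG04 and near 0 without LG12. RPS24 averaged 667 ± 64 scaled CPM at 2 hours and 587 ± 81.3 before treatment. Mitochondrial respiratory chain genes had a median of 0.16 (near 0 without LG04) with 25 of 26 higher, but 1 of them in 4 of 4 animals, and their mean change was 0.59 in LG04 and between -0.09 and 0.09 in the other 3. Proteasome subunits had a median of 0.05 with 18 of 22 higher and 2 in 4 of 4 animals (9.09%, against 8.06% of all genes). That median was -0.06 without LG04, 0.10 without LG12 and 0.18 without LG15. Apoptosis genes had a median of 0.03, which was 0.12, 0.05 and 0.09 without LG04, LG11 and LG15. Cell-cycle genes had 0.08, but -0.08 without LG04, 0.02 without LG11 and -0.04 without LG15. Plasma-cell markers had 0.03, but 0.17 and 0.10 without LG04 and LG15 and -0.01 without LG11 or without LG12. T-cell activation and checkpoint receptors had -0.16 with 11 of 16 lower, and -0.10 and -0.05 without LG11 and LG15.

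Genes of protein folding in the endoplasmic reticulum had a median of -0.11, with 13 of 19 lower and 4 in 4 of 4 animals; it was -0.17 without LG04 and -0.04 without LG15. The lower ones included EIF2AK3, the kinase PERK of the unfolded protein response (102 ± 45.3 scaled CPM at 2 hours and 131 ± 37.6 before treatment), and the chaperone HSP90B1 (288 ± 49.4 scaled CPM at 2 hours and 345 ± 30.3 before treatment). Replication-dependent histone genes had a median of -0.25 with 12 of 13 lower and 0 in 4 of 4 animals, and -0.46 without LG04 and -0.13 without LG11. Their mean change was -0.80 and -0.79 in LG11 and LG15, and 0.26 and 0.06 in LG04 and LG12.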
